A study of Homo sapiens with 6 samples.

Results

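The genes described here are the 81 protein-coding histone genes among the 46427 genes of the deposited gene table, chosen by symbol alone. They comprised 60 replication-dependent core genes, whose symbols carry a C and a number (16 H2AC, 17 H2BC, 13 H3C and 14 H4C genes), 10 linker H1 genes and 11 variant core genes (H2AX, H2AZ1, H2AZ2, H2AJ, H3-2, H3-3A, H3-3B, H3-4, H3-5, MACROH2A1 and MACROH2A2). Histone genes named in another way, such as CENPA, were not analysed here. The cells were MDA-MB-231/RR, a radioresistant line derived from MDA-MB-231 (human triple-negative breast cancer) and grown with serum, and their RNA was sequenced. The 6 libraries were 3 from cells co-treated with ortho-topolin riboside (oTR), a plant cytokinin riboside, and melatonin, the pineal hormone, and 3 from controls. The sources used here do not give doses, exposure times, the controls' vehicle or whether the line is a single clone, and no library of either compound alone was analysed here. The labels do not say whether the 3 samples of a group were separate cultures; every p-value here therefore measures the spread between these samples alone, and that spread may be technical.

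Replication-dependent histone genes are transcribed during S phase at histone locus bodies organised by NPAT, and they supply the H2A, H2B, H3 and H4 that package newly copied DNA. Their short mRNAs have no introns and usually no poly(A) tail. They end instead in a stem-loop that is bound by SLBP, is cut by the U7 snRNP and directs the decay of the mRNA when DNA synthesis stops. Variant and replacement histone genes lie elsewhere in the genome, mostly carry introns, end in a poly(A) tail and are expressed throughout the cell cycle, so their proteins can replace the core histones outside replication.

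The stem-loops of the genes on which the results turn show which transcripts carry this ending. Each is given with 5 flanking bases on either side, as the annotated transcript reads 5′ to 3′ (GENCODE 29, GRCh38), and the capitals mark the 16-base stem and loop.
H4C14, chr1:149833027-149833052, plus strand: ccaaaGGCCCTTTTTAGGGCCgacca
H4C15, chr1:149860764-149860789, minus strand: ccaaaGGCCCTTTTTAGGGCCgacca
H2BC5, short form, chr6:26158582-26158607, plus strand: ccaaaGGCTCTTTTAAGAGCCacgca
H2AC6, chr6:26124664-26124689, plus strand: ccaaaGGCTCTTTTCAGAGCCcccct
H4C11, chr6:27824454-27824479, plus strand: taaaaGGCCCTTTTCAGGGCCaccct
H2AX, chr11:119094893-119094918, minus strand: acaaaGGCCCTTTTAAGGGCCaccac
H4C14 and H4C15 carry the same 26 bases. The consensus stem-loop was searched in the 100 bases after the stop codon. Many core models of this annotation end at or near the stop codon, but of the 28 core genes with at least 60 annotated bases after it, 27 held the stem-loop, the exception being H2BC11. It was found in 0 of 4 such linker genes and in 2 of 10 variant genes, H2AX and H3-4, against 3 of 19509 other protein-coding genes (0.0154%). In the authors' transcript table, 25 of 28 unspliced core transcripts in which it could be placed ended within 10 bases after it. The spliced forms of H2BC5, H2BC4 and H2BC18 in the annotation did not hold it in the same window.

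Deposited estimated counts summed to between 50569611 and 72204161 in the co-treated libraries and between 56521572 and 72309015 in the controls. Ribosomal RNA genes took 0.711%, 1.23% and 0.629% of the counts in co-treated libraries 1 to 3, against 0.525%, 0.547% and 0.464% in control libraries 1 to 3. Markers of the line were present in all libraries (VIM at least 2037 TPM, CD44 at least 249 TPM), and ESR1, PGR, CDH1 and the leukocyte marker PTPRC had at most 0.0243 TPM. ERBB2, listed as low, read 28.3 to 37.4 TPM. In bulk RNA, a change in the share of cells in S phase and a change in histone mRNA per cell cannot be told apart.

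Variant genes gave most of the histone mRNA that was measured. On the TPM scale, which corrects for transcript length, H2AZ1, which encodes the H2A.Z variant found around promoters, stood highest, with 1347, 1373 and 1382 TPM in the co-treated libraries and 1456, 1401 and 1475 TPM in the controls. It was followed by H3-3B, at 735 to 763 TPM in co-treated and 631 to 649 TPM in control libraries and, among the genes reported here, by H3-3A, at 368 to 381 and 299 to 329 TPM. H2BC12, the highest core gene, averaged 280 ± 6.85 TPM in co-treated and 266 ± 4.26 TPM in control libraries (SD, n = 3 each), and MACROH2A1, next below it in level, averaged 256 ± 4.36 and 257 ± 8.37 TPM. H1-2 and H1-10 overlapped in the co-treated libraries (99.2 to 103 and 92.1 to 104 TPM) but not in the controls (90.9 to 101 and 60.1 to 62.4 TPM). No other core gene apart from H2AC6 and H2BC5 exceeded 20 TPM in any library.

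**Figure D1:**
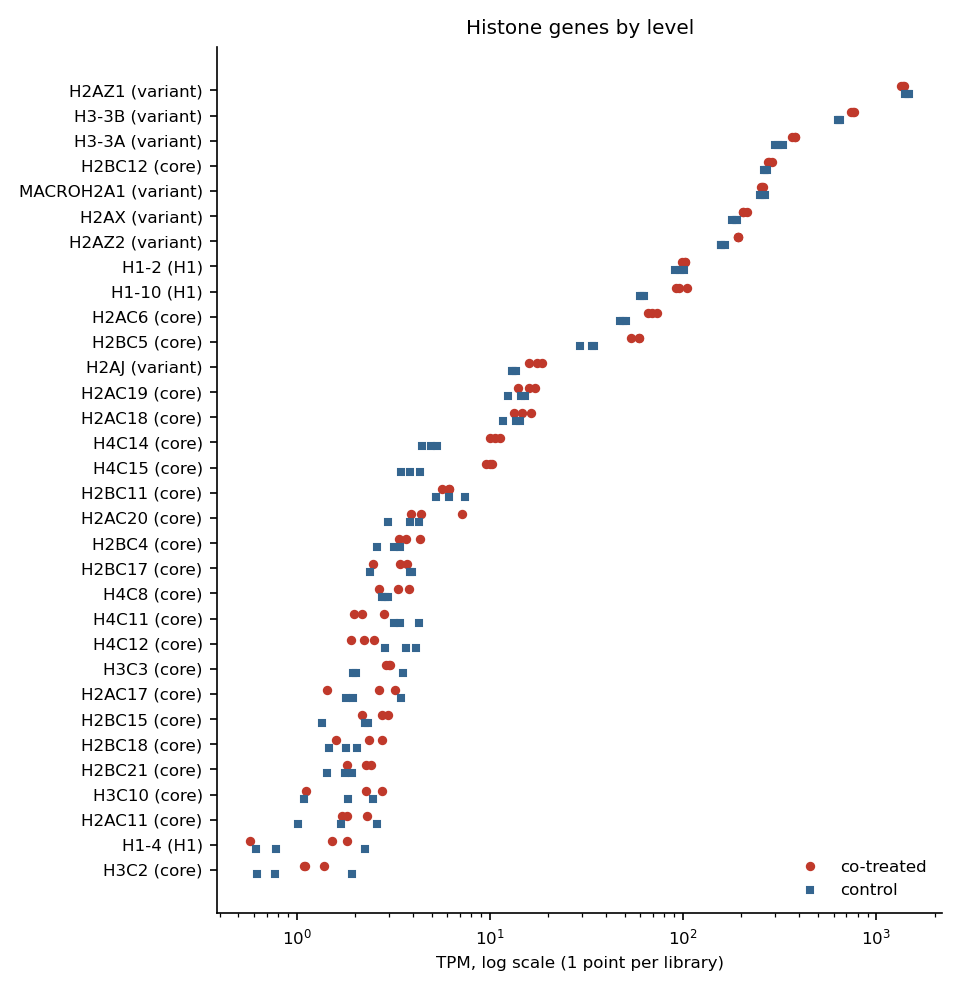
Levels of the histone genes reported here with a mean of at least 1 TPM, on a log axis in TPM, highest at the top, with 1 point per library and the co-treated points above the control points in each row. H2AZ1 lies above 1300 TPM in every library, 7 further variant and linker genes and 1 core gene, H2BC12, lie between 60.1 and 763 TPM, and most core genes lie below 10 TPM.

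The core genes lie in a cluster on chromosome 6 (chr6:25726063-27893891, 49 genes) and another on chromosome 1 (chr1:149782689-149887965, 11 genes). All 11 on chromosome 1 had counts and 9 of them passed the filter on low counts, whereas 20 of the 49 on chromosome 6 were listed at 0 in every library and 17 passed. Among the linker genes, 6 were listed at 0 in every library, as were the variants H3-4 and MACROH2A2. In all, 28 histone genes were listed at 0, 14 core genes had too few counts to test (at most 23 in any library), and 39 were tested, namely 26 core, 4 linker and 9 variant genes.

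Co-treatment left most tested histone genes within the spread of the libraries, with clear rises in a few. At an edgeR adjusted p under 0.05 over all genes, 9 of the 39 were higher in co-treated cells and 4 were lower. This is 13 of 39, where 33.7% of all 16557 genes tested were called (16.6% higher and 17.1% lower), so the share called was close to that of all genes. The median log2 fold change of the 39 was 0.10, against 0.00 over all genes. The normalized CPM (counts scaled to the same library size) of the groups did not overlap for 16 of the 39, against 47.4% of all genes. By class, 4 of 26 core genes were higher and 2 lower, and 3 of 9 variant genes were higher and 2 lower.

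**Figure D2:**
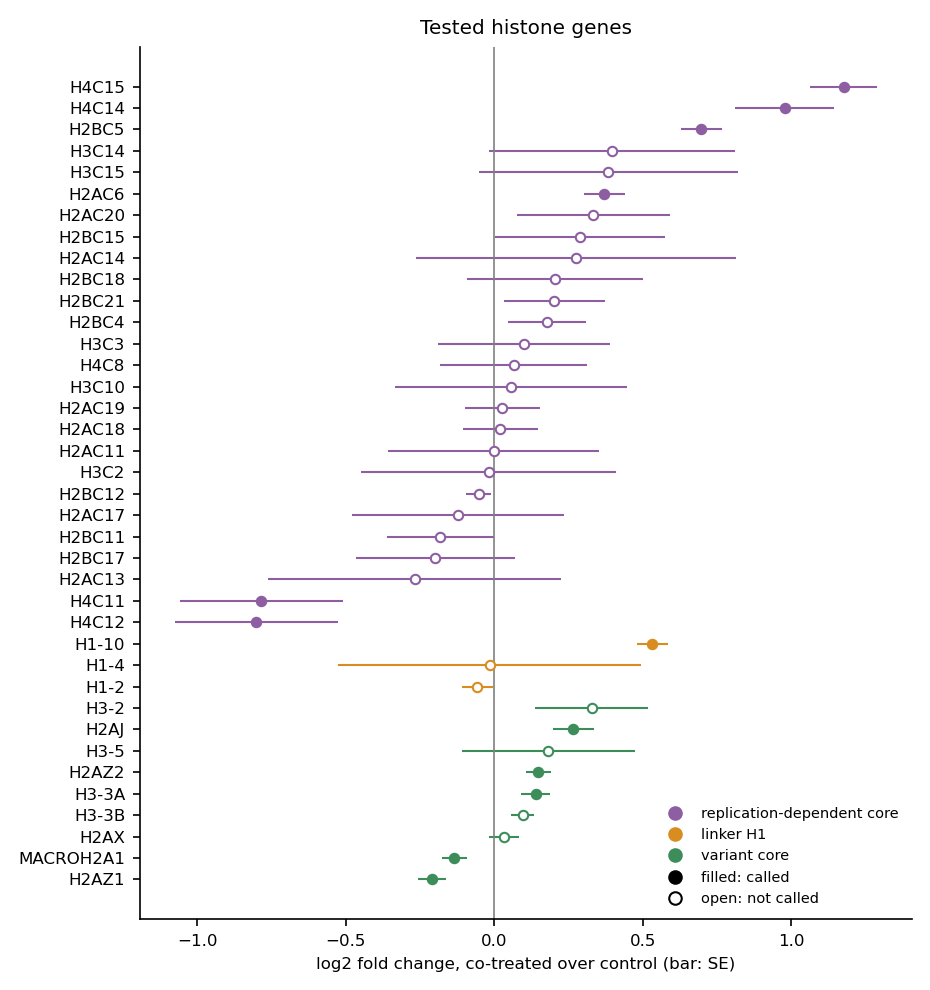
Log2 fold change of co-treated over control libraries, with its standard error, for the tested histone genes reported here, by class. Filled points passed an adjusted p of 0.05: 4 core genes lie to the right at 0.37 to 1.18 and 2 to the left near -0.8, the called linker gene H1-10 lies to the right, and the 5 called variant genes lie between -0.21 and 0.27.

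The largest rises were in a pair of H4 genes on chromosome 1. H4C15 (Entrez Gene 554313) had 6.33, 6.62 and 6.74 CPM in the co-treated libraries, against 2.50, 2.93 and 3.25 CPM in the controls. Every co-treated library was above every control, with a log2 fold change of 1.18 (adjusted p = 4.86e-05 in edgeR, SE 0.11), or 2.26-fold. H4C14 (Entrez Gene 8370) had 1.80, 1.72 and 1.97 CPM in co-treated and 0.828, 0.925 and 1.03 CPM in control libraries, a log2 fold change of 0.98 (adjusted p = 0.0013 in edgeR, SE 0.17). Both encode histone H4. The genes are near-identical copies: of the 75-base stretches of the longest GENCODE transcript, 0% of those of H4C14 and 5.01% of those of H4C15 occurred in no other gene. The deposited spliced forms of H4C15, described below, were not searched in this way. Reads in the shared stretches had to be apportioned between the genes, so the pair is not independent evidence from 2 genes. Their sum does not depend on how reads were split between the pair and was 8.13, 8.34 and 8.71 CPM in co-treated libraries, against 3.33, 3.86 and 4.28 CPM in controls. The 10 H4C genes outside this pair and the H4C11 and H4C12 pair summed to 0.697, 1.04 and 0.871 CPM in co-treated libraries and 0.792, 0.940 and 0.974 CPM in controls, which overlap.

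By the deposited estimates, the reads of H4C15 fell mainly in forms other than the short histone mRNA. Its non-coding spliced form of 1705 bases had 6.51, 5.90 and 6.47 TPM in co-treated and 2.41, 3.13 and 2.77 TPM in control libraries. A second non-coding form of 955 bases and a coding spliced form of 1688 bases took most of the rest, and the 396-base unspliced form, which ends at the stem-loop, took at most 1.02% of the gene's TPM in co-treated and 2.73% in control libraries. H4C14 is given only as a 396-base unspliced form. Since H4C14 had no 75-base stretch of its own, the share of the short H4C15 form depends on how reads were apportioned within the pair. The 250 bases before the starts of the pair are the same in all 250 positions (RefSeq, GRCh38.p14). The window is shown because the pair rose together and because it lacks the elements described further on, and it has no capitals for that reason.
H4C14, chr1:149832407-149832656, plus strand, and H4C15, chr1:149861160-149861409, minus strand: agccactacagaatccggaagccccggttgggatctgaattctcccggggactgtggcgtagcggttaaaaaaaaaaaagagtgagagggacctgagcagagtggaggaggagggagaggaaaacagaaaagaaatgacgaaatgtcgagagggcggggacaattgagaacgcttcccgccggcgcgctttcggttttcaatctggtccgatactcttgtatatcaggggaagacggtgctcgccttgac

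**Figure D3:**
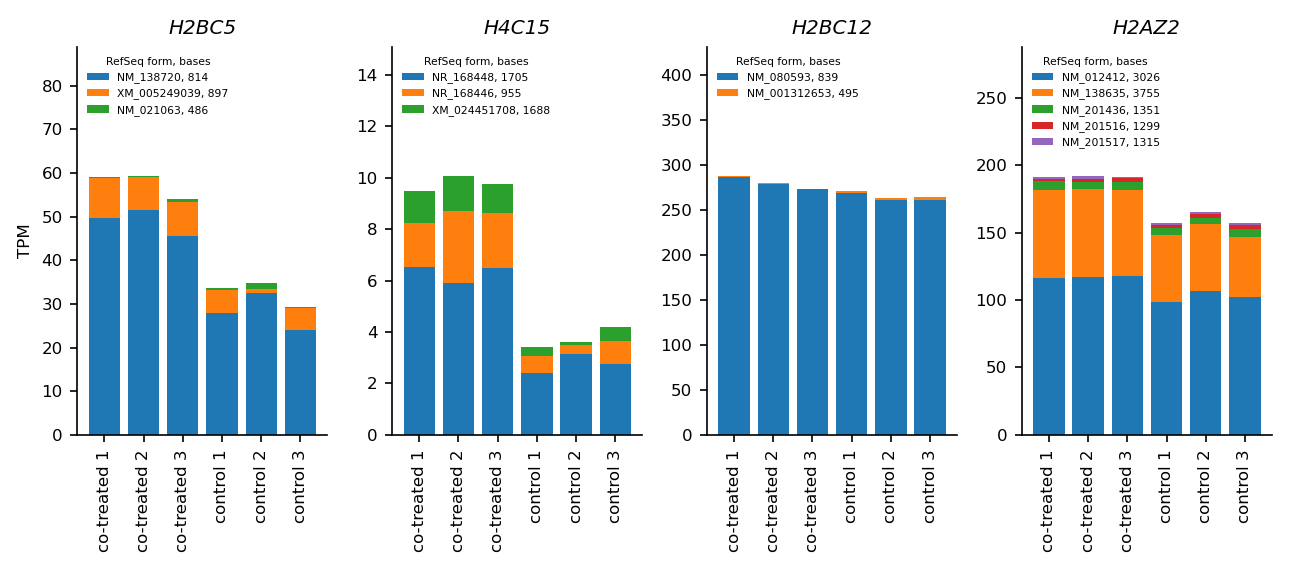
TPM of the deposited transcript forms of H2BC5, H4C15, H2BC12 and H2AZ2, stacked per library, with the co-treated libraries on the left of each panel; the legends give each form and its length in bases. The tallest part of each bar is a spliced form of 814 bases for H2BC5, 1705 bases for H4C15, 839 bases for H2BC12 and 3026 bases for H2AZ2.

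H2BC5 (Entrez Gene 3017, chr6:26158008-26171349), an H2B gene, rose next most among the core genes. It had 20.6, 21.1 and 19.5 CPM in co-treated libraries, against 13.0, 13.1 and 11.7 CPM in controls. The groups did not overlap, and the log2 fold change was 0.70 (adjusted p = 5.80e-05 in edgeR, SE 0.07), or 1.62-fold. Most of its reads lay in a spliced form of 814 bases whose annotated end lacks the stem-loop shown above. This form had 49.7, 51.6 and 45.6 TPM in co-treated and 28, 32.4 and 23.9 TPM in control libraries. The 486-base unspliced form, which ends in the stem-loop, took 0.554%, 0.271% and 1.49% of the gene's TPM in co-treated libraries and 1.45%, 3.61% and 0.647% in controls. Within the gene, 98.3% of 75-base stretches occurred in no other gene.

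H2BC12 was likewise read almost entirely as a spliced form, of 839 bases, which took 99.6% to 99.9% of its TPM in co-treated and 99.1% to 99.5% in control libraries. Of the 75-base stretches of its 381-base GENCODE transcript, 49.5% occurred in no other gene. The 839-base form was not searched in this way. H2BC12 was not called: it had 102, 101 and 101 CPM in co-treated and 106, 103 and 107 CPM in control libraries. These do not overlap, but the log2 fold change was -0.05 (adjusted p = 0.352 in edgeR, SE 0.04), and its sign turned under other scalings. H2BC4 lay mostly in a spliced form of 2378 bases and was not called (log2 fold change 0.18, SE 0.13). Over the 60 core genes, spliced forms, detected for 5 genes, carried 68.6%, 68.5% and 68.8% of the TPM in co-treated libraries and 70.4%, 70.8% and 69.4% in controls. Without H2BC12 the spliced forms summed to 71.7, 73.4 and 67.5 TPM in co-treated and 40.5, 40.4 and 35.9 TPM in control libraries. Most of that remainder lay in H2BC5 and H4C15, both called higher, so it largely repeats their rises. The 814-base form of H2BC5 averaged 49.0 TPM in co-treated and 28.1 TPM in control libraries, and the 1705-base form of H4C15 6.29 and 2.77 TPM. The unspliced forms summed to 164, 162 and 154 TPM in co-treated and 130, 124 and 131 TPM in control libraries, and without H2AC6 to 90.3, 96.6 and 85.4 TPM against 79.5, 77.0 and 82.1 TPM. The spliced and the unspliced sums, with or without these genes, were higher in each co-treated library than in any control. The unspliced sum without H2AC6 still holds H4C14, which was called higher. H4C14 had 10.7, 10.0 and 11.3 TPM in co-treated and 4.44, 4.95 and 5.34 TPM in control libraries. That sum therefore partly repeats the rise of H4C14, and it was not formed without both genes. On the TPM scale the median log2 fold change of all tested genes also stood 0.09 higher at a pseudocount of 1 and 0.12 higher at 0.1.

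H2AC6 (Entrez Gene 8334, chr6:26124172-26124690), an H2A gene, was the only called core gene that shared no 75-base stretch with another gene and was given as an unspliced stem-loop form, of 519 bases. It had 16.1, 14.7 and 15.7 CPM in co-treated libraries, against 12.3, 11.5 and 12.3 CPM in controls. The groups did not overlap, and the log2 fold change was 0.37 (adjusted p = 0.00208 in edgeR, SE 0.07). The annotation also holds a form of 1654 bases that runs past the stem-loop, which the authors' table does not separate. H2AC6 starts 245 bases from H2BC4, which runs the other way, so the window between them serves both genes. It is shown here 5′ to 3′ on the H2AC6 strand, with capitals for the TATA box (TATAAA), the CCAAT box (CCAAT) and the octamer (ATTTGCAT), each read on either strand.
H2AC6, chr6:26123922-26124171, plus strand: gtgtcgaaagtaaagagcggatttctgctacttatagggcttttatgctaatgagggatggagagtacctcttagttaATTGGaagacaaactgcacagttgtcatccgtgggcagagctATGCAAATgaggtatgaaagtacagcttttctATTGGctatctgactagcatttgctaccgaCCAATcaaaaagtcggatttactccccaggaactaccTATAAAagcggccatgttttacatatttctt
The octamer is the site read by POU2F1, the factor of H2B gene promoters, and CCAAT is that of NF-Y. In the 250 bases before the start, the octamer occurred in 15 of 19 H2BC promoter entries (78.9%) and in 45.8% of the 59 core entries, against 1.63% of all 35116 promoters. TATAAA occurred in 69.5% of core entries against 10.7% of all, and CCAAT in 84.7% against 32.0%. These are matches of letters on both strands and do not show binding. Of the core genes called higher, H2AC6 held all 3, H2BC5 held TATAAA and CCAAT, and H4C14 and H4C15 held none.

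H4C11 and H4C12 on chromosome 6 were the only core genes called lower. They fell under the level at which called genes were to be named and were chosen after their values were seen. H4C11 had 20, 25 and 25 counts in co-treated libraries 1 to 3 and 35, 42 and 57 counts in control libraries 1 to 3, and H4C12 had 18, 22 and 28 counts against 37, 38 and 55. Their log2 fold changes were -0.78 (adjusted p = 0.0471 in edgeR, SE 0.27) and -0.80 (adjusted p = 0.0428 in edgeR, SE 0.27). They too are near-copies, with 0% of the 75-base stretches of H4C12 found in no other gene, and 245 of 250 bases before the start identical. Both calls were lost with DESeq2 (adjusted p = 0.102 and 0.0962) and with the length trend removed (edgeR adjusted p = 0.125 and 0.112). Leaving out co-treated library 1 or 3 or control library 1 or 3 also ended both, at adjusted p between 0.0742 and 0.182 in edgeR, and leaving out co-treated library 2 ended that of H4C12 (0.0666) and control library 2 that of H4C11 (0.0590).

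The other 20 tested core genes were not called, with log2 fold changes between -0.27 and 0.40. They included the near-copies H2AC18 and H2AC19 on chromosome 1, which summed to 7.54, 7.06 and 6.4 CPM in co-treated and 7.02, 6.0 and 7.60 CPM in control libraries, and all 5 tested H3C genes, whose class summed to at most 2.42 CPM in any library.

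**Figure D4:**
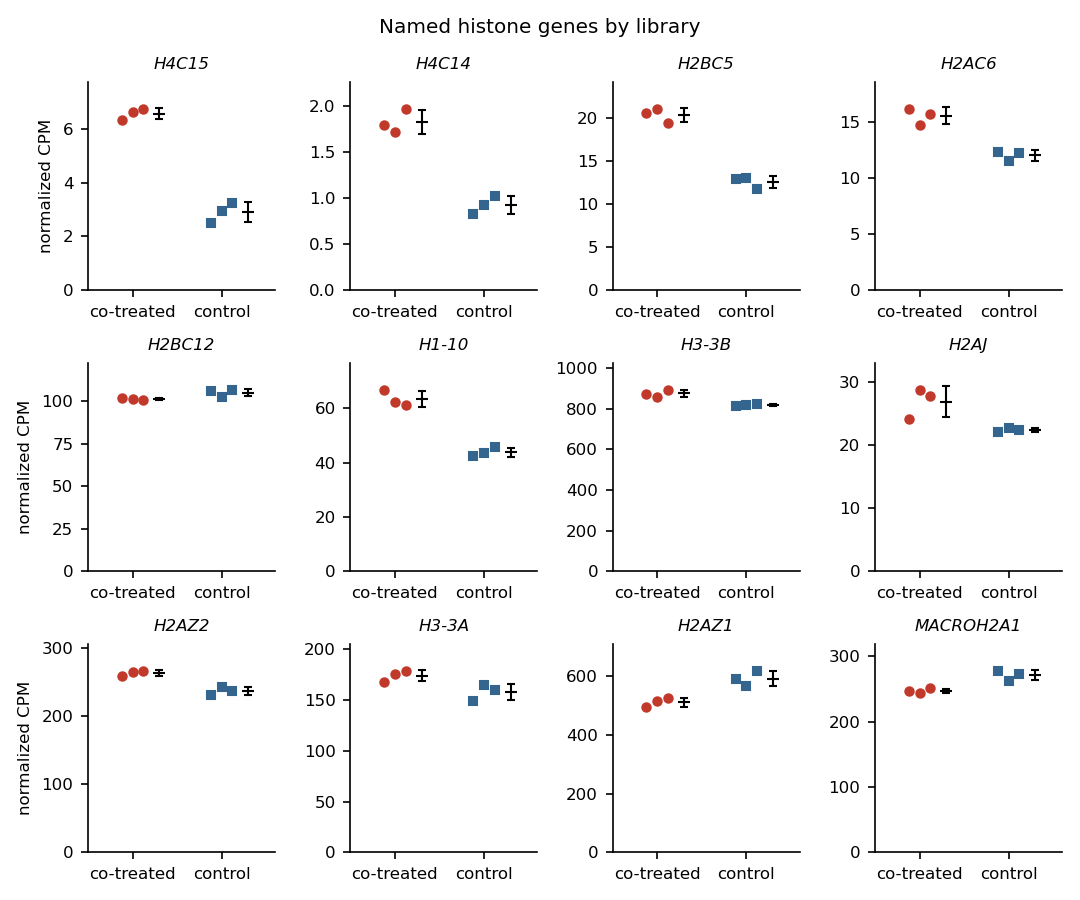
Normalized CPM of 12 named histone genes, with co-treated libraries on the left and controls on the right of each panel; the bars give mean and SD over 3 libraries and each axis starts at 0. H4C15, H4C14, H2BC5, H2AC6, H1-10, H3-3B, H2AJ, H2AZ2 and H3-3A are higher in every co-treated library than in any control. H2AZ1, MACROH2A1 and, by little, H2BC12 are lower in every co-treated library than in any control. H3-3B and H2BC12 were not called.

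Of the linker histones, which bind the DNA between nucleosomes, H1-10 was called higher. This gene (Entrez Gene 8971, chromosome 3), which encodes the replication-independent H1x, had 66.9, 62.4 and 61.2 CPM in co-treated libraries, against 42.5, 43.4 and 45.7 CPM in controls. The groups stood well apart, with a log2 fold change of 0.53 (adjusted p = 5.80e-05 in edgeR, SE 0.05), or 1.45-fold. It overlaps the antisense gene H1-10-AS1, which averaged 0.860 CPM. H1-2, the only linker gene of the chromosome 6 cluster above 1 CPM, had 31.8, 32.2 and 31.8 CPM in co-treated and 34.6, 33.0 and 32.1 CPM in control libraries and was not called (log2 fold change -0.06, adjusted p = 0.429 in edgeR, SE 0.05), and its sign turned under other scalings. H1-4, also in that cluster, stayed under 1 CPM and was not called.

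The variant genes moved by small amounts and in both directions. H2AJ (chromosome 12), an H2A variant, had 24.1, 28.7 and 27.7 CPM in co-treated and 22.0, 22.6 and 22.4 CPM in control libraries, a log2 fold change of 0.27 (adjusted p = 0.0135 in edgeR, SE 0.07). The groups did not overlap, but without co-treated library 2 or 3 the adjusted p was 0.0579 or 0.0518. The H2A.Z genes went opposite ways. H2AZ1 (chromosome 4) had 493, 513 and 524 CPM in co-treated libraries and 588, 566 and 617 CPM in controls, and fell by 0.21 on the log2 scale (adjusted p = 0.00542 in edgeR, SE 0.05). H2AZ2 (chromosome 7) had 258, 264 and 266 CPM in co-treated and 232, 243 and 237 CPM in control libraries, a log2 fold change of 0.15 (adjusted p = 0.0186 in edgeR, SE 0.04). Neither gene's groups overlapped. The fall of H2AZ1, an 866-base transcript, was not called on the log2(TPM + 1) scale (log2 difference -0.08, adjusted p = 0.193) or with the length trend removed (-0.07, adjusted p = 0.22), and across all tested genes log2 fold change rose with transcript length (Spearman 0.26, a description over genes). H2AZ2 lost its call without co-treated library 2 or 3 or control library 1 or 3 (adjusted p 0.0511 to 0.0919). Its main form of 3026 bases took 60.9% to 61.8% of its TPM in co-treated and 62.9% to 65.2% in control libraries.

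H3-3A and H3-3B, on chromosomes 1 and 17, encode the same replacement histone, H3.3. H3-3A had 168, 175 and 179 CPM in co-treated and 149, 165 and 160 CPM in control libraries, with a log2 fold change of 0.14 that passed narrowly (adjusted p = 0.0498 in edgeR, SE 0.05) and did not pass with the GC trend removed (0.06, adjusted p = 0.387), with no filter on counts (adjusted p = 0.0846) or without co-treated library 2 or 3 or control library 1 or 3. H3-3B had 873, 858 and 893 CPM in co-treated and 813, 819 and 824 CPM in control libraries, which do not overlap, but its log2 fold change of 0.09 (adjusted p = 0.0756 in edgeR, SE 0.04) was not called. It was called with library size alone, on the TPM scales and with either trend removed (adjusted p 0.00274 to 0.0342). H2AX, the H2A variant phosphorylated at DNA breaks, had 137, 140 and 150 CPM in co-treated and 139, 133 and 146 CPM in control libraries. These overlap, and the log2 fold change was 0.03 (adjusted p = 0.66 in edgeR, SE 0.05), though on the log2(TPM + 1) scale the difference was 0.16 (adjusted p = 0.0169). MACROH2A1 (chromosome 5), whose protein carries a large non-histone domain, had 246, 244 and 251 CPM in co-treated and 278, 263 and 273 CPM in control libraries. It fell by 0.14 on the log2 scale (adjusted p = 0.0298 in edgeR, SE 0.04), a call that was lost on the log2(TPM + 1) scale (-0.01, adjusted p = 0.889), with library size alone and without any of 5 of the 6 libraries in turn. Its main coding form of 1917 bases held 67.1%, 64.6% and 75.1% of its TPM in co-treated and 71.8%, 72.3% and 75.4% in control libraries, which overlap.

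Summed over each class, core genes gave 521, 514 and 495 TPM in co-treated and 440, 426 and 428 TPM in control libraries, a log2 ratio of 0.24. Without H2BC12, the other 59 core genes gave 234, 235 and 222 TPM in co-treated and 169, 163 and 164 TPM in control libraries, a log2 ratio of 0.47. That sum drops the largest uncalled core gene and keeps those called higher, so it largely repeats their rises. In it, H2AC6 averaged 69.4 TPM in co-treated and 49.0 TPM in control libraries, and H2BC5 57.5 and 32.6 TPM. H4C14 and H4C15 together averaged 20.6 and 8.80 TPM. Variant genes gave 3151, 3154 and 3196 TPM against 3024, 2989 and 3030 TPM, a log2 ratio of 0.07. These sums were higher in each co-treated library than in any control, but on that scale the median of all tested genes also stood 0.09 higher at a pseudocount of 1 and 0.12 higher at 0.1. In normalized CPM the log2 ratios were 0.12 for core genes, 0.41 for core genes without H2BC12 and 0.00 for variant genes. H2BC12 held 54.3% to 55.2% of the core TPM in co-treated and 61.5% to 61.6% in control libraries, and H2AZ1 held 42.7% to 43.5% of the variant TPM in co-treated and 46.9% to 48.7% in control libraries.

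Of the genes that make, process and handle histones, several were lower. Of 30 tested genes for histone transcription and 3′ end processing, 13 were lower (43.3%, against 17.1% of all genes tested) and 3 higher (10.0%, against 16.6%), with a median log2 fold change of -0.10. The falls included the Sm proteins SNRPF, at 69.8 ± 6.2 CPM in co-treated and 107 ± 8.46 CPM in control libraries (SD, n = 3 each; log2 fold change -0.62), SNRPD3 (-0.45) and SNRPE (-0.41), which the U7 snRNP shares with the spliceosomal snRNPs, and SRRT (-0.41), a cap-binding partner. SLBP, which binds the stem-loop, averaged 71.4 ± 3.19 CPM in co-treated and 72.9 ± 1.27 CPM in control libraries (SD, n = 3 each) and was not called (log2 fold change -0.03, SE 0.05). NPAT was not called either (0.23, adjusted p = 0.122 in edgeR, SE 0.10). Of 18 tested genes of histone mRNA decay, 4 were lower and 3 higher, so the share called (38.9%) was near the 33.7% of all genes. LSM7 (-0.72), LSM5 (-0.33) and LSM6 (-0.27), subunits of the ring that binds oligouridylated mRNA ends, were lower, and TUT7 (0.36), a terminal uridylyltransferase, was higher.

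Of 39 tested histone chaperone and deposition genes, 18 were lower (46.2%) and 2 higher (5.13%), with a median log2 fold change of -0.12. IPO4, an importin for new H3 and H4, had 96.3, 105 and 110 CPM in co-treated libraries, against 162, 164 and 174 CPM in controls (log2 fold change -0.68, adjusted p = 1.91e-05 in edgeR, SE 0.06). RUVBL2 (-0.55) and RUVBL1 (-0.52), ATPases of the complexes that exchange H2A.Z, and MCM2 (-0.48), a helicase subunit that also carries H3 and H4, were lower as well. The CAF-1 subunits, which deposit H3 and H4 behind the fork, were lower by less: CHAF1A had a log2 fold change of -0.20 and CHAF1B one of -0.16. ASF1B, which hands H3 and H4 to CAF-1, was not called (0.09, adjusted p = 0.339 in edgeR, SE 0.06). ANP32E, which removes H2A.Z from chromatin and was chosen after its values were seen, had a log2 fold change of -0.30 (SE 0.05). Of 52 tested DNA replication and G1/S genes, 25 were lower (48.1%) and 4 higher (7.69%), with a median log2 fold change of -0.11 and with MCM2, UHRF1 (-0.45), POLD2 (-0.44) and MCM5 (-0.40) the largest. Of the 153 genes tested in all 5 lists together, 60 were lower (39.2%) and 17 higher (11.1%). On the log2(TPM + 1) scale, where the median of all genes stood 0.09 higher, 20 were lower (13.1%, against 8.09% of all genes) and 26 higher (17.0%, against 27.3%).

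Because the stem-loop mRNAs have no poly(A) tail and the sources used here do not give the RNA selection, other RNA without a tail was listed beside them. Of 38 such genes in the table, 19 were tested, a share called of 36.8% against 33.7% of all genes. By direction, 6 were higher (31.6%, against 16.6% of all genes) and 1 was lower (5.26%, against 17.1%). Their median log2 fold change was 0.78, against 0.00 over all genes. All 6 called higher are ribosomal RNA copies, among them RNA18SN3 with 258, 778 and 310 CPM in co-treated and 93.3, 221 and 143 CPM in control libraries. The share called higher and the median count such copies separately. Whether these copies share reads was not examined here, so they may not be independent of each other. The 29 listed genes that are not ribosomal RNA summed to 176, 200 and 99.7 CPM in co-treated and 210, 97.3 and 107 CPM in control libraries, which overlap. The part of carried-over RNA without a tail in the rises of H2AC6, H4C14 and H4C15 was not tested.

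**Figure D5:**
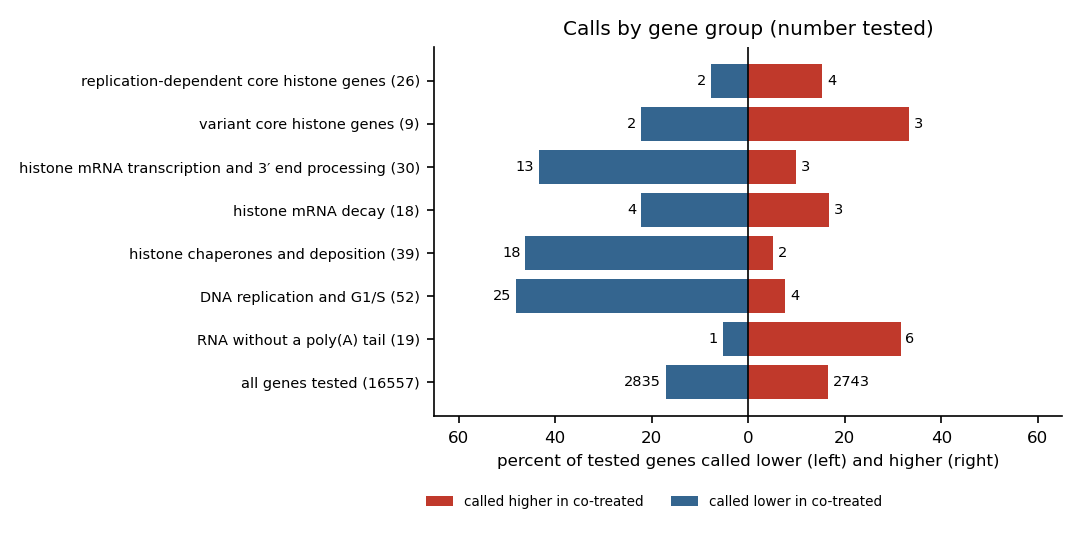
Percent of tested genes called higher (right) and lower (left) in co-treated libraries, for the core and variant histone genes, the companion lists and all genes, with the number of genes at each bar and the number tested in parentheses. Lower calls outnumber higher ones in the lists for processing (13 and 3), chaperones (18 and 2) and replication (25 and 4), while core histone genes have 4 higher and 2 lower.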

How the data were processed

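The authors deposited gene and transcript tables with values headed as read counts, and with FPKM and TPM. The deposited counts are estimated counts: of 220256 low transcript values, 220256 equalled FPKM times length, rounded up (tolerance 0.06 counts), and each of 46427 genes was the sum of its transcripts. They were used as they stand; TPM, per the file headers, gave levels and an alternative test; FPKM, per the file headers, served only this comparison. StringTie 2.1.3b, SAMtools 1.9, Bowtie2, HISAT2 2.1.0, Trimmomatic 0.38 and the build GRCh38 appear, with no roles, in the submitters' processing notes; the sources used here do not give strandedness or RNA selection. Reads of near-identical genes were thus apportioned by an estimate, and sense and antisense reads may be mixed.

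Genes were filtered with filterByExpr (minimum count 10; 16557 left) and tested with edgeR 4.0.16 (R 4.3.3; quasi-likelihood, relative log expression factors as named in the labels, Benjamini-Hochberg over all tested genes, threshold 0.05). CPM uses the same factors, and SE is the fit's standard error. Alternatives were TMM, library size alone or without ribosomal RNA, DESeq2 1.42.0, voom (limma 3.58.1), 2 other filters, leaving out each library, the replicate number as a block, limma on log2(TPM + pseudocount) and removal of length and GC trends. In drawn counts for 16326 genes, 21 of 50 genes changed by 1.25-fold were called, 34 of 50 by 1.5-fold, 40 of 50 by 2-fold and 49 of 50 by 4-fold, and 15 of the 159 calls made were false. No libraries were merged, since each pair within a group gave a chi-square of 11.6 to 19.0 per degree of freedom over genes, above counting noise. Stem-loops and shared stretches were read from GENCODE 29 transcripts, and promoters from RefSeq (74 of 81 genes matched). Named are called members of at least 1 CPM, the 3 highest per class, 10 preset variant and linker genes, up to 4 called genes per companion list and 5 preset ones; others are said to be chosen after their values were seen. One linker gene that enters the counts is not reported here. Members and lists were chosen with earlier results of these data known. Figures used matplotlib 3.10.9.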

Additional observations from a re-analysis of the deposited data

How the results depend on the processing

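The rises of H4C15, H4C14, H2BC5, H2AC6 and H1-10 kept their direction and their call in 19 alternatives (library sizes without ribosomal RNA, a further one, gave the same fit as the scaling factors and is no check), with log2 fold changes between 0.32 (H2AC6) and 1.34 (H4C15). The 4 lower calls among histone genes did not hold as well: they numbered 1 with library size alone, 2 with DESeq2, 2 with the replicate number as a block, 2 on log2(TPM + 1) and log2(TPM + 0.1), 0 on log2(TPM + 1) without a filter, 1 with the length trend removed and 1 with length and GC trends removed, and 1 to 3 with a library left out. The 2 core genes called lower became 0 with library size alone, DESeq2, the block, log2(TPM + 1) without a filter and removal of the length or both trends, 1 without a filter on counts and with the GC trend removed, and 0 to 1 with a library left out. The 3 variant genes called higher became 5 on all 3 TPM scales and 0 to 3 with a library left out, and the 2 called lower became 1 with library size alone and with the length or both trends removed, 0 on the TPM scales and 1 to 2 with a library left out. Genes in the companion lists called lower, 60 in edgeR, numbered 38 with library size alone (24.8%, against 12.5% of all genes), 20 on log2(TPM + 1) (13.1% against 8.09%), 21 on log2(TPM + 0.1) and 20 without a filter, and those called higher, 17 in edgeR, numbered 26 and 27 on log2(TPM + 1) and log2(TPM + 0.1). These settings move all genes: the median log2 fold change was 0.06 with library size alone, 0.09 on log2(TPM + 1) and 0.12 on log2(TPM + 0.1). The log2 fold change of H2BC12 turned to 0.0056 with library size alone, 0.0756 on log2(TPM + 1) with and without a filter, 0.0759 on log2(TPM + 0.1), 0.096 with the length trend, 0.0076 with the GC trend and 0.141 with both trends removed, and that of H1-2 to 0.00027, 0.0733, 0.0739, 0.103, 0.0106 and 0.159 in the same order. That of H2AX ranged from -0.0049 (without co-treated library 3) to 0.0661 with a library left out, and was -0.0009 without control library 2. The log2 ratios of summed levels were 0.12 for core and 0.00043 for variant genes in normalized CPM. Same-numbered libraries did not deviate together (correlations 0.07, 0.0004 and -0.04), so the block pairs by number alone. Why these values move with the setting was not tested. Near-copies and core genes of under 1 CPM are the least precise.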
